A study of Mus musculus with 12 samples.

Results

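The 40 genes described here carry out or drive the cell division cycle in mouse small intestine. They fall by role into 16 S phase genes (licensing, replication fork and nucleotide supply), 6 regulators of G1 and 18 genes of G2 and mitosis. The members were looked up by gene symbol in the table of adults and carried to the table of neonates by Entrez Gene identifier. All 40 were found in both tables, out of 23319 genes that the tables share. RNA-seq was run on whole, pulverized small intestine of C57BL/6 mice in 4 groups of 3 libraries. These were wild type (WT) and NCoR1 intestinal knockout (KO) neonates at 12 days of age, and WT and KO adults at 10 weeks of age. The NCoR1 protein is recruited by nuclear receptors and keeps their target genes off. Each library was a pool of RNA from 2 mice, so p-values reflect the spread between pools. The design text calls the 2 strains F/FUN and DIECUN without saying which group each one is, and the sources used here do not name the driver of the intestinal deletion.

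A dividing cell loads the Mcm2 to Mcm7 helicase onto its replication origins in G1, fires the origins in S phase, and separates the copied chromosomes in mitosis. Genes of the S phase wave are classically driven by E2F transcription factors. Genes of the G2 and mitosis wave are driven through CCAAT and cell cycle homology elements, with FoxM1 among the factors involved. In the small intestine the dividing cells sit in the crypts, as stem cells and transit-amplifying progenitors, while the villus cells that make up most of the epithelium have left the cycle. RNA of whole tissue therefore dilutes these transcripts, and fewer cells in cycle and less RNA per cycling cell cannot be told apart in such data.

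Levels are given as CPM, each gene's count per 1000000 reads in genes of its library. Libraries held 5930748 to 9340917 reads in genes in neonates and 9775420 to 13057329 in adults. Single members had 19 to 2287 reads per library in neonates and 33 to 2894 in adults, and all 40 passed the filter of 1 CPM in 3 libraries at both ages. Ncor1, the targeted gene, stood at 447, 459 and 451 CPM in WT neonates against 245, 213 and 235 CPM in KO neonates, and at 239.5, 252 and 245 CPM in WT adults against 159, 168 and 164 CPM in KO adults, with no overlap of genotypes at either age. Markers of villus enterocytes summed to between 48542 and 60040.3 CPM in the 12 libraries. Paneth cell markers were low in neonates, at 351 to 583 CPM, and high in adults, at 7368 to 14084 CPM. One library stood apart for the division genes. The library WT adults 2 was the highest of its group for 18 of 18 mitosis members and for 12 of 16 S phase members. Mitosis members there summed to 813 CPM, against 596 and 614 CPM in the other WT adult libraries. Its summed crypt base stem cell markers were also the highest of the group, at 717 CPM beside 573 and 504 CPM, and so were its pancreas acinar markers, at 3150 CPM beside 1047 and 1173 CPM. The part of these differences in the results below was not tested, and results that rest on this library are also given without it.

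Between KO and WT, 35 of 40 members in neonates and 36 of 40 in adults had a 95% interval within 1.5-fold of no change. Differences between KO and WT were tested with limma on log2(CPM + 1) within each age, and a gene is said to have risen or fallen where its adjusted p over all genes tested was under 0.05. In neonates 3 of 40 members rose, namely Cdt1, Ccnd1 and Aurka, beside 5.21% of the 14215 genes tested. A single member, Mcm2, fell in neonates, beside 16% of all genes. In adults 1 of 40 members rose, Cdt1, beside 5.5% of the 13463 genes tested. No member fell in adults by limma within that age, beside 13.9% of all genes, and none did by edgeR or DESeq2. In that limma fit 4 members had an unadjusted p under 0.05, in either direction. A limma fit of all 4 groups did call Mcm6 and Mki67 lower in adults (adjusted p = 0.0282 and 0.0204).

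The split between rises and falls depends on the scaling. When scaled by library sum, the median gene had a KO minus WT difference of -0.11 log2 units at both ages; with TMM factors that median was -0.0183 in neonates and -0.00407 in adults. Under TMM, 8.99% of genes rose and 7.72% fell in neonates, and 9.91% rose and 6.37% fell in adults. Among the members, Aurkb joined the 3 that rose in neonates, and Cdc20 and Ube2c joined Cdt1 in adults, while Mcm2 remained the one that fell in neonates. The median member stood 0.17 log2 units above the median of all genes in neonates and 0.12 above it in adults. Relative to that median, 34 of 40 members were higher in KO neonates and 32 of 40 in KO adults, and these counts describe the list without a test. Members whose 3 KO libraries did not overlap the 3 WT libraries numbered 12 of 40 in neonates, beside 36.9% of all genes, and 5 of 40 in adults, beside 38.3% of all genes.

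**Figure D1:**
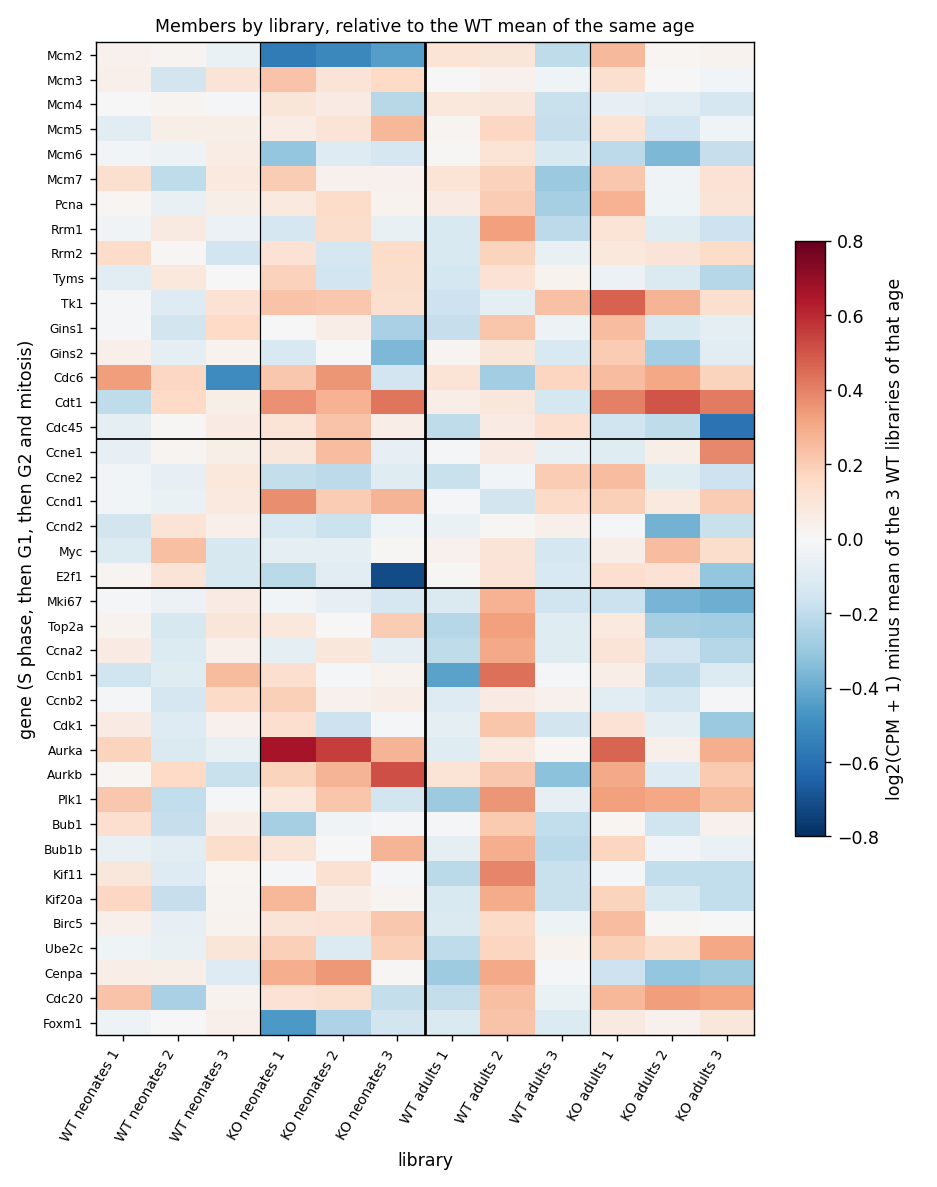
Heat map of the 40 members (rows, by role) in the 12 libraries (columns), as log2(CPM + 1) minus the mean of the 3 WT libraries of the same age. The Mcm2 row is blue in all 3 KO neonate libraries, the Cdt1 row is red in all 6 KO libraries, and the column of WT adults 2 is red for 18 of 18 mitosis members.

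The precision of the libraries bounds what could have been missed. The 95% intervals of the KO effect reached a median of 0.23 log2 units to either side of the estimate in neonates and 0.28 in adults. No member had an interval reaching a change of 1 log2 unit at either age. A member that did not pass the test may still differ by less than its interval.

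**Figure D2:**
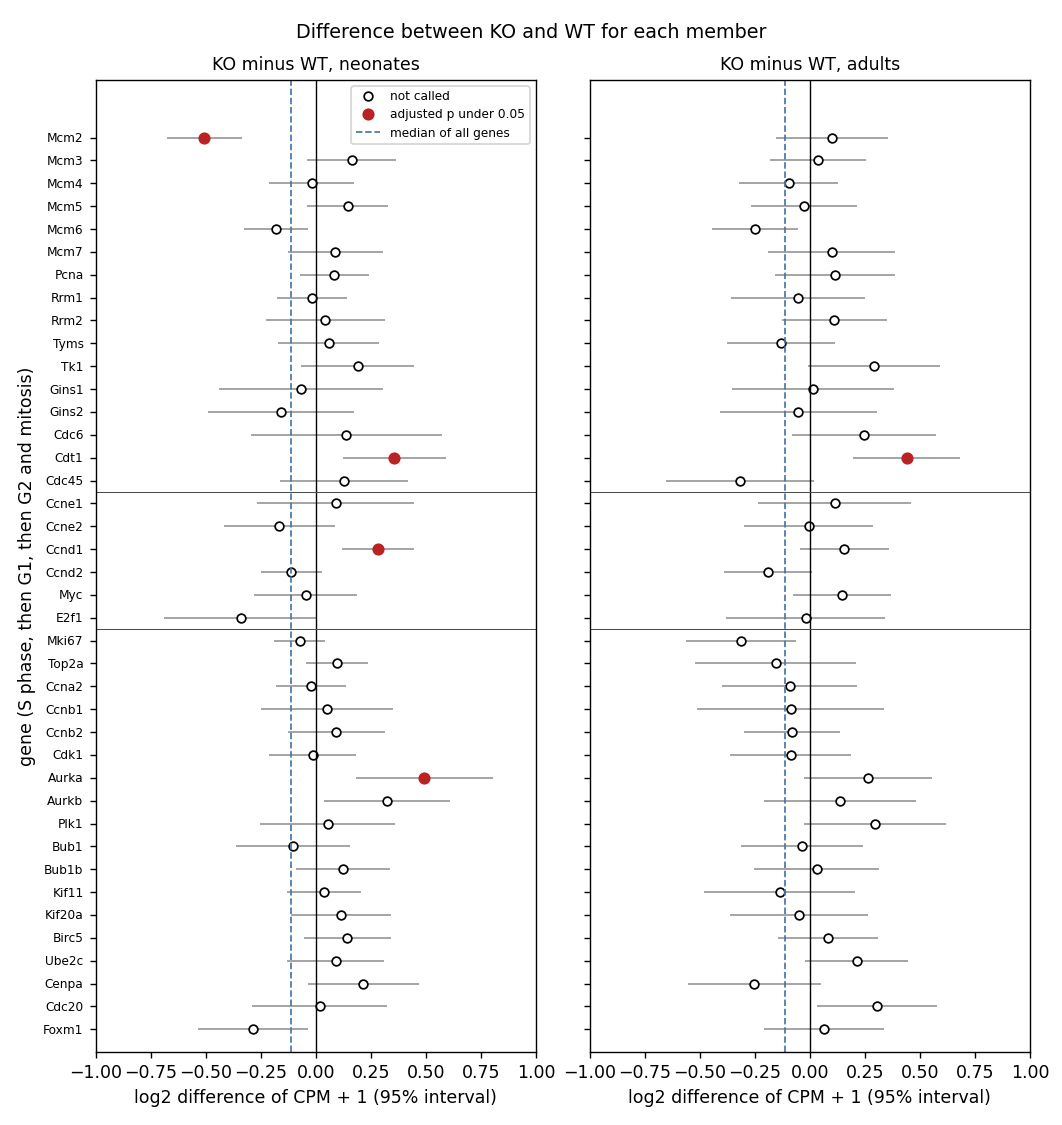
Log2 difference between KO and WT for each member in neonates (left) and adults (right), with 95% intervals from limma; filled red points have an adjusted p under 0.05 and the dashed line marks the median of all genes, at -0.11 in both panels. In neonates Mcm2 lies alone at -0.51, and Cdt1 is filled at both ages.

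Mcm2 was the member with the clearest change. It encodes a subunit of the replicative helicase (Entrez Gene 17216, mm9 chromosome 6, 88833468 to 88848774, minus strand). It was measured at 43.6, 43.1 and 41.0 CPM in the 3 WT neonate libraries and 28.6, 29.5 and 31.0 CPM in the 3 KO neonate libraries. The groups did not overlap, and the KO mean was 30.3% below the WT mean. The log2 difference was -0.51 with a standard error of 0.08 (limma, adjusted p = 0.000139). In adults Mcm2 read 20.2, 20.1 and 16.1 CPM in WT adults against 22.5, 18.9 and 19.1 CPM in KO adults, and those groups overlapped, with a difference of 0.10 and a 95% interval of -0.15 to 0.35. The KO effect differed between the ages by 0.61 log2 units, with an interval of 0.31 to 0.90 (limma interaction, adjusted p = 0.0134). Among all genes the effect in adults was above that in neonates for 3.02% and below it for 2.44% of 14588 genes, and Mcm2 was the only member among them. Every alternative setting and every library left out kept Mcm2 past the threshold, with adjusted p from 6.08e-05 to 0.0057 in neonates and from 0.0063 to 0.0405 for the difference between ages.

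The other 5 subunits of the same ring did not pass the test at either age with scaling by library sum. Mcm5 was measured at 29.4, 32.3 and 32.3 CPM in WT neonates against 32.7, 33.8 and 37.9 CPM in KO neonates, with a log2 difference of 0.15 (limma, adjusted p = 0.263). KO neonate libraries were all above the WT ones, opposite to Mcm2. In adults Mcm5 read 25.7, 28.4 and 22.1 CPM in WT adults against 27.3, 22.6 and 24.7 CPM in KO adults, with overlapping groups. Mcm6, the subunit with the highest level per length (WT neonates 16.0 RPKM, a level that also divides by exon length), was lower in each KO library than in every WT library at both ages. Its differences of -0.18 in neonates and -0.25 in adults missed the threshold (limma, adjusted p = 0.075 and 0.0689). With TMM factors they were -0.08 and -0.13. Mcm6 did pass in neonates with RPKM scaling (-0.25, limma, adjusted p = 0.0404), and in adults in the fit of all 4 groups (adjusted p = 0.0282) and without WT adults 3 (0.0394). Mcm3, Mcm4 and Mcm7 differed by 0.16, -0.02 and 0.09 log2 units in neonates and by 0.04, -0.10 and 0.10 in adults. The span of Mcm7 from start to end overlaps 3 microRNA genes on the same strand, Mir25, Mir93 and Mir106b. Whether its exons overlap them was not examined.

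The share of Mcm2 among the helicase transcripts was also taken within each library, where no scaling enters. Mcm2 made up 18.4%, 18.8% and 17.0% of the reads of Mcm2 to Mcm7 in the 3 WT neonate libraries. Its share was 13.1%, 13.2% and 14.0% in the KO neonate libraries, all below the lowest WT value. In adults the share was 13.3%, 12.5% and 12.2% in WT and 15.1%, 14.3% and 13.6% in KO, so the KO libraries lay above the WT ones there. The neonatal share restates the reads that gave the Mcm2 result and is no separate support for it.

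**Figure D3:**
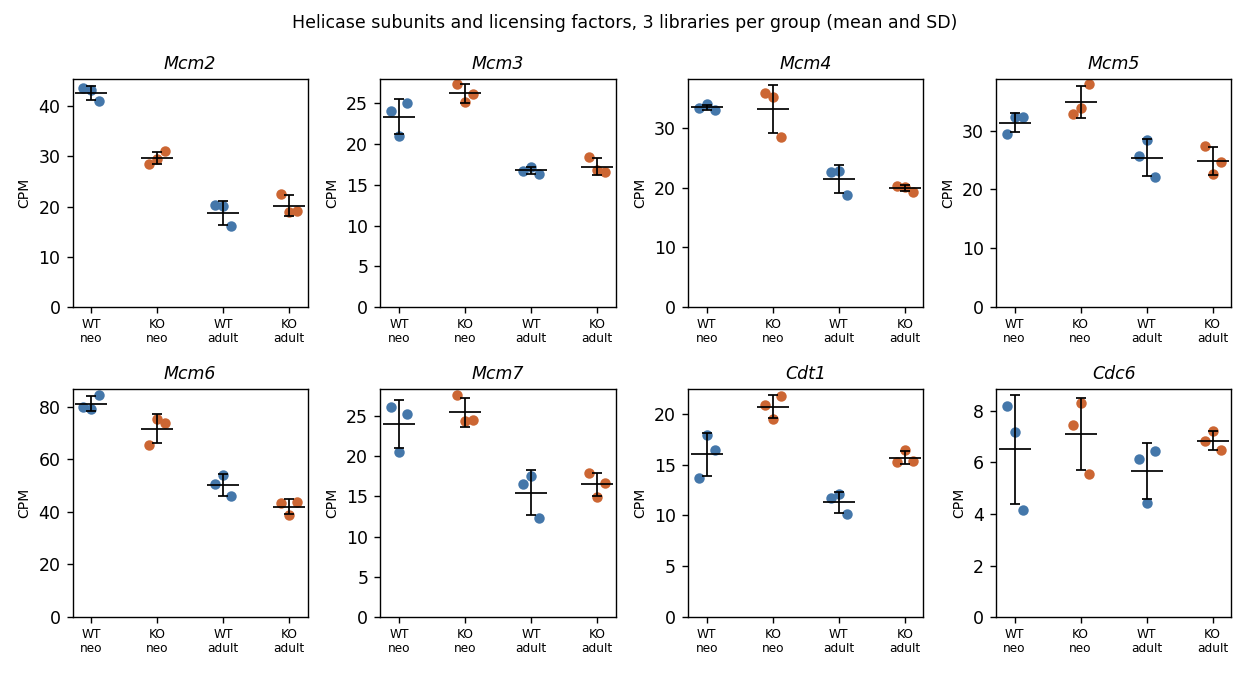
CPM per library of the 6 helicase subunits and of the loaders Cdt1 and Cdc6 in the 4 groups (blue WT, orange KO), with the mean and SD of 3 libraries; each panel has its own axis from 0. Mcm2 falls from 41.0 to 43.6 CPM in WT to 28.6 to 31.0 CPM in KO neonates, and all 6 subunits are lower in WT adults than in WT neonates.

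Because Mcm2 was the one helicase subunit called with scaling by library sum, the DNA before its start is shown beside that of Mcm5 and Mcm6. The 200 bases before the annotated start come from RefSeq (build GRCm38.p6, which is not the build of the counts), and capitals mark exact matches to TTTCGCGC or TTTGGCGC (E2F site), to the CCAAT box and to TTTGAA (cell cycle homology region) on either strand.
Mcm2 (chr6:88898781-88898980, minus strand): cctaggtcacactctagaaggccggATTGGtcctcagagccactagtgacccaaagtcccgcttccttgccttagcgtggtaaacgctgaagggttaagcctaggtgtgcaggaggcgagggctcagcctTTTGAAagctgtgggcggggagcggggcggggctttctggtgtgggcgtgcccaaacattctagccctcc
Mcm5 (chr8:75109309-75109508, plus strand): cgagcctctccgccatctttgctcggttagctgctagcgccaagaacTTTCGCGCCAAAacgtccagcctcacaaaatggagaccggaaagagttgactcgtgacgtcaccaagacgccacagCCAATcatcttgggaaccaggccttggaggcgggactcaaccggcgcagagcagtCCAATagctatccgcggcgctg
Mcm6 (chr1:128359706-128359905, minus strand): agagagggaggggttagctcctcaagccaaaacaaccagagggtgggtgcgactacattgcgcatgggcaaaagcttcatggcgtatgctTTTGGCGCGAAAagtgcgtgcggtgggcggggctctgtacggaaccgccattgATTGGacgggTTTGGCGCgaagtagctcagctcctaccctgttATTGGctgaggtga
Mcm5 holds 2 overlapping E2F matches that begin 153 and 149 bases before the start. Mcm6 holds 3, of which the ones at 110 and 106 bases overlap. The Mcm2 window holds no E2F match, 1 CCAAT on the other strand and 1 TTTGAA that begins 70 bases before the start. Windows of 300 bases, from 250 before to 50 after the start, were given for 29 of the 40 members and 5 of the 6 helicase subunits. Of those 5, Mcm3, Mcm5, Mcm6 and Mcm7 held an E2F match and Mcm2 did not. The E2F letters occur in 0.833% of all 27025 promoter windows and in 5 of 13 S phase members. A match describes letters, and its absence says nothing about binding of a factor.

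Cdt1, which loads the helicase onto origins, rose in the KO at both ages (Entrez Gene 67177, mm9 chromosome 8, 125091915 to 125097030, plus strand). It was measured at 13.7, 17.9 and 16.5 CPM in the 3 WT neonate libraries and 20.9, 19.5 and 21.8 CPM in the 3 KO neonate libraries, a log2 difference of 0.36 with a standard error of 0.11 (limma, adjusted p = 0.028). In adults it read 11.7, 12.1 and 10.1 CPM in WT adults against 15.2, 16.4 and 15.4 CPM in KO adults, a difference of 0.44 with a standard error of 0.11 (limma, adjusted p = 0.0162). Every KO library was above every WT library of its age, and Cdt1 was the only member called at both ages. Its effect did not differ detectably between the ages, with a difference of 0.08 and an interval of -0.25 to 0.41. Without WT neonates 1, KO neonates 1 or KO neonates 3 the neonatal adjusted p was 0.159, 0.0668 or 0.0999, and without KO adults 2 or KO adults 3 the adult one was 0.0665 or 0.0551. With RPKM scaling the neonatal adjusted p was 0.0765. The Cdt1 promoter window holds 1 E2F match, after the start.

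Cdc6, the partner of Cdt1 in loading, had the lowest level per length of the 40 members (WT neonates 0.821 RPKM). It was measured at 8.20, 7.17 and 4.15 CPM in WT neonates against 7.46, 8.30 and 5.56 CPM in KO neonates, with overlapping groups. In adults it read 6.12, 4.44 and 6.45 CPM in WT adults against 6.84, 7.20 and 6.46 CPM in KO adults. All 3 KO adult libraries were above the WT ones there, narrowly, and the difference of 0.25 did not pass the test (limma, adjusted p = 0.274). Cdc45, Gins1 and Gins2, which join the helicase when origins fire, differed by 0.13, -0.07 and -0.16 log2 units in neonates and by -0.32, 0.02 and -0.05 in adults. None of the 3 passed, and the widest interval among them, that of Gins1 in neonates, ran from -0.44 to 0.31.

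At the fork and in nucleotide supply no member rose or fell. Pcna, the sliding clamp of the DNA polymerases, had the highest level per length of the members in WT neonates, at 20.7 RPKM. Its libraries read 45.8, 43.5 and 46.9 CPM in WT neonates against 47.9, 50.4 and 46.2 CPM in KO neonates. They read 39.8, 44.0 and 31.4 CPM in WT adults against 46.4, 37.1 and 40.9 CPM in KO adults, and WT and KO overlapped at both ages. Rrm2, the small subunit of ribonucleotide reductase, stood at 12.8, 11.6 and 10.2 CPM in WT neonates against 12.5, 10.3 and 12.8 CPM in KO neonates. Its adult libraries read 14.0, 17.5 and 14.6 CPM in WT adults against 16.3, 16.5 and 17.0 CPM in KO adults, again with overlap. Rrm1, the large subunit, differed by -0.02 in neonates and -0.05 in adults. Thymidylate synthase (Tyms) differed by 0.06 and -0.13, and a Tyms pseudogene is also listed in the tables, so reads may be split between them. Thymidine kinase (Tk1) stood 0.19 higher in KO neonates and 0.29 higher in KO adults, neither past the threshold (limma, adjusted p = 0.297 and 0.16).

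Among the G1 regulators, cyclin D1 rose in KO neonates. Ccnd1, which carries growth signals to Cdk4 and Cdk6, was measured at 39.7, 38.9 and 42.8 CPM in the 3 WT neonate libraries and 52.7, 46.7 and 49.1 CPM in the 3 KO neonate libraries. The groups did not overlap, and the log2 difference was 0.28 with a standard error of 0.08 (limma, adjusted p = 0.0134). In adults it read 42.0, 38.0 and 47.1 CPM in WT adults against 48.2, 44.6 and 48.7 CPM in KO adults, with 1 WT library inside the KO range, and did not pass the test (0.16, limma, adjusted p = 0.256). The effects at the 2 ages were not shown to differ (limma interaction, adjusted p = 0.638). Leaving out KO neonates 1, WT neonates 1 or WT neonates 2 took the neonatal adjusted p to 0.0625, 0.0507 or 0.0558, and RPKM scaling took it to 0.0793.

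Cyclin D2 was the more abundant D cyclin, at 18.1 RPKM in WT neonates beside 6.08 RPKM for Ccnd1. Ccnd2 libraries read 164, 197 and 188 CPM in WT neonates against 167, 161 and 178 CPM in KO neonates, and 203, 213 and 217 CPM in WT adults against 209, 162 and 186 CPM in KO adults. WT and KO overlapped at both ages. Myc, a growth regulator upstream of the D cyclins and E2F, read 18.4, 23.7 and 18.1 CPM in WT neonates against 18.8, 18.9 and 20.1 CPM in KO neonates, and 20.8, 21.8 and 18.3 CPM in WT adults against 21.1, 24.2 and 22.4 CPM in KO adults, also with overlap. E2f1, an activator of S phase genes, read 8.55, 9.10 and 7.58 CPM in WT neonates against 7.08, 7.82 and 4.72 CPM in KO neonates. The KO minus WT difference was -0.34 log2 units, but 1 KO library fell inside the WT range and the test was not passed (limma, adjusted p = 0.159). In adults E2f1 read 3.91, 4.26 and 3.48 CPM in WT adults against 4.35, 4.29 and 2.94 CPM in KO adults, with overlap. The E cyclins, which start S phase with Cdk2, differed by 0.09 (Ccne1) and -0.17 (Ccne2) in neonates and by 0.11 and -0.01 in adults. The exon length of Ccne2 is 2999 bases in the table of neonates and 3099 in that of adults, the one member for which the lengths differ.

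In the G2 and mitosis group, the spindle kinase Aurka rose in KO neonates and no member fell. Aurka, which matures the spindle poles, was measured at 7.85, 6.21 and 6.51 CPM in the 3 WT neonate libraries and 11.4, 10.5 and 8.43 CPM in the 3 KO neonate libraries (Entrez Gene 20878). Groups did not overlap, and the log2 difference was 0.49 with a standard error of 0.15 (limma, adjusted p = 0.0226). In adults it read 8.07, 9.23 and 8.80 CPM in WT adults against 12.4, 8.96 and 10.8 CPM in KO adults, overlapping, with a difference of 0.27 (limma, adjusted p = 0.187). The neonatal call was lost without any of 4 libraries, namely KO neonates 1 (adjusted p 0.1), KO neonates 2 (0.0726), WT neonates 2 (0.0781) or WT neonates 3 (0.0644). Aurkb, the kinase of the chromosomal passenger complex, stood 0.32 higher in KO neonates without overlap (limma, adjusted p = 0.102), and passed with TMM factors (0.42, adjusted p = 0.0372). Its passenger partner Birc5, or survivin, was 0.14 higher without overlap and did not pass (limma, adjusted p = 0.308).

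Mki67 encodes the proliferation antigen Ki-67. Its neonatal libraries read 249.7, 245 and 265 CPM in WT neonates against 249, 242 and 231 CPM in KO neonates, overlapping, with a difference of -0.07 and an interval of -0.19 to 0.04. Adult libraries read 195, 257 and 189.6 CPM in WT adults against 188, 164 and 162 CPM in KO adults. Every KO adult library was below every WT adult one, and the difference of -0.31 missed the threshold (limma, adjusted p = 0.0779; TMM -0.19, adjusted p = 0.245). WT adults 2 was the highest of those libraries, and without it no member was called lower in adults. Without WT adults 3 Mki67 passed, with an adjusted p of 0.0365, as did Mcm6, at 0.0394. Mki67 also passed in the fit of all 4 groups (limma, adjusted p = 0.0204). Top2a, the topoisomerase that untangles sister chromatids, read 154, 138 and 162 CPM in WT neonates against 160.2, 150.5 and 174 CPM in KO neonates. In adults it read 119, 175 and 130.0 CPM in WT adults against 147, 116 and 114 CPM in KO adults, and WT and KO overlapped at both ages.

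No mitotic cyclin, nor the kinase they activate, passed the test at either age. Ccnb1, cyclin B1, read 7.73, 8.14 and 10.7 CPM in WT neonates against 9.73, 8.66 and 8.94 CPM in KO neonates, and 6.12, 12.0 and 8.49 CPM in WT adults against 8.94, 7.28 and 7.89 CPM in KO adults. The WT adult values spanned the whole KO range. Cdk1, the kinase that cyclins A and B activate, read 31.9, 28.3 and 31.1 CPM in WT neonates against 33.5, 26.9 and 30.2 CPM in KO neonates, and 24.1, 30.0 and 23.0 CPM in WT adults against 27.7, 24.2 and 20.6 CPM in KO adults, with overlap at both ages. Ccna2 and Ccnb2 differed by -0.02 and 0.09 log2 units in neonates and by -0.09 and -0.08 in adults. Foxm1, a transcription factor of the G2 and mitosis wave, read 14.1, 14.5 and 14.9 CPM in WT neonates against 10.2, 12.0 and 13.0 CPM in KO neonates. All 3 KO neonate libraries were below the WT ones, at -0.29 log2 units (limma, adjusted p = 0.0997). In adults it read 10.2, 13.2 and 10.2 CPM in WT adults against 11.8, 11.4 and 11.9 CPM in KO adults, overlapping. The span of a transcript annotated as 4933413G19Rik shares 377 bases with that of Foxm1 on the same strand. The Foxm1 count may be mixed if exons are shared, which was not examined.

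At the mitotic exit, Cdc20 and Ube2c, the activator of the anaphase-promoting complex and its ubiquitin-conjugating enzyme, passed limma's test in KO adults with TMM factors but not with scaling by library sum. Cdc20 read 11.8, 8.14 and 10.2 CPM in WT neonates against 10.9, 10.9 and 8.60 CPM in KO neonates, and 10.1, 14.0 and 11.3 CPM in WT adults against 14.3, 15.0 and 14.8 CPM in KO adults. The 3 KO adult libraries were above the WT ones, the nearest being WT adults 2. The difference was 0.30 (limma, adjusted p = 0.106), 0.42 with TMM (adjusted p = 0.0333), and passed without WT adults 2 (adjusted p = 0.0436). Ube2c was 0.21 higher in KO adults (limma, adjusted p = 0.186) and 0.33 higher with TMM, where its adjusted p was just under the threshold. Plk1, the polo kinase of mitotic entry and exit, read 10.9, 7.92 and 9.12 CPM in WT neonates against 9.86, 10.9 and 8.26 CPM in KO neonates, and 8.16, 13.3 and 9.72 CPM in WT adults against 13.0, 12.9 and 12.3 CPM in KO adults. WT adults 2 was the highest of the 6 adult libraries, and without it Plk1 passed (adjusted p = 0.0396). Bub1 and Bub1b of the spindle checkpoint, the motors Kif11 and Kif20a and the centromeric histone Cenpa lay between -0.10 and 0.22 in neonates and between -0.25 and 0.03 in adults, and none passed by limma.

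Mitosis members differ from S phase members in the share of windows with each motif, so 2 of those named above are shown in the same way (RefSeq, GRCm38.p6, capitals as before).
Cdc20 (chr4:118437344-118437543, minus strand): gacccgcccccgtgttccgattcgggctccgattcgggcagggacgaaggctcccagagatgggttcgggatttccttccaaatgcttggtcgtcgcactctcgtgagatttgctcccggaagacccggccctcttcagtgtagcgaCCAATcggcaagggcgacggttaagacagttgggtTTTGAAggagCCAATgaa
Ube2c (chr2:164769729-164769928, plus strand): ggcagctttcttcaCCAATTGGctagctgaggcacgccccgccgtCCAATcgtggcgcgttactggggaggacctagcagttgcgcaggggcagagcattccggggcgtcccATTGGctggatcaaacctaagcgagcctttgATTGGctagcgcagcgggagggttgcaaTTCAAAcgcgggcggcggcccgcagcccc
Cdc20 holds CCAAT at 53 and 8 bases before the start, with TTTGAA between them at 18 bases. Ube2c holds its TTTGAA on the other strand at 29 bases, with CCAAT boxes upstream, of which the ones at 186 and 183 bases overlap. CCAAT occurred in 13 of 14 mitosis members with a window and in 9 of 13 S phase members, beside 37.9% of all windows. TTTGAA occurred in 11 of 14 mitosis members and in 2 of 13 S phase members, Mcm2 and Cdc45, beside 18.1% of all windows. The E2F letters occurred in 1 of 14 mitosis members, Cdk1. Mcm2 is thus a helicase subunit whose window has the TTTGAA letters and lacks the E2F ones, and nothing about its regulation was measured here.

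S phase and mitosis members were set side by side as groups. In neonates the median S phase member stood 0.18 log2 units above the median of all genes and the median mitosis member also 0.18. In adults the values were 0.14 for S phase and 0.07 for mitosis. These medians, and the order of S phase and mitosis, shifted when single libraries were left out. Without WT neonates 2 the neonatal values were 0.14 for S phase and 0.10 for mitosis, and without WT neonates 3 they were 0.17 and 0.26. Without WT adults 2 the adult values were 0.20 and 0.21, so that mitosis no longer lay below S phase. The adult mitosis value was 0.04 without WT adults 1 or WT adults 3 and 0.12 without KO adults 2 or KO adults 3, and the adult S phase value was 0.08 without KO adults 1 and 0.09 without WT adults 3. Relative to the median of all genes, 17 of 18 mitosis members were higher in KO neonates and 14 of 18 in KO adults. The S phase medians also lay above that of all genes at both ages, so this was not particular to mitosis. These counts were not tested. The ratio of the geometric mean of the 18 mitosis members to that of the 16 S phase members, taken within each library, needs no scaling. It was 1.21, 1.11 and 1.21 in WT neonates and 1.22, 1.19 and 1.25 in KO neonates. Adult ratios were 1.35, 1.66 and 1.47 in WT and 1.46, 1.44 and 1.49 in KO. The genotypes overlapped in both ages, and every adult library was above every neonate library.

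**Figure D4:**
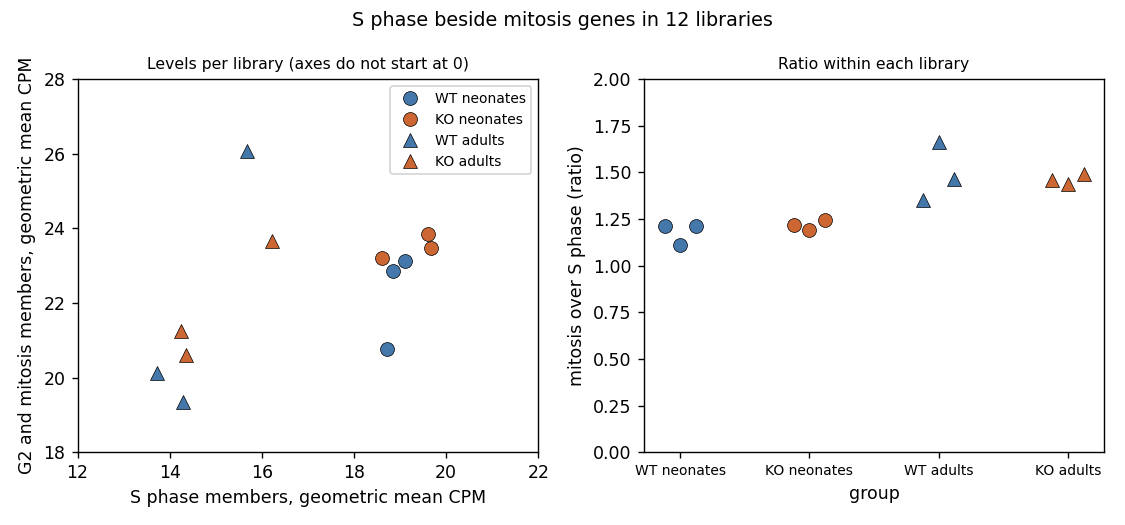
Left, geometric mean CPM of the 18 mitosis members against that of the 16 S phase members in 12 libraries (axes do not start at 0); right, their ratio in each library by group. Adult libraries (triangles) have ratios of 1.35 to 1.66 and neonate libraries (circles) of 1.11 to 1.25, and WT adults 2 is the highest, at 1.66.

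All helicase subunits were lower in WT adults than in WT neonates. WT adults and WT neonates are compared as values only, because each age has its own table and scaling, so that age and table cannot be told apart. Mcm2 went from 42.6 ± 1.40 CPM in WT neonates to 18.8 ± 2.36 CPM in WT adults (SD, n = 3), or by -1.15 log2 units, the lowest value of the 40 members. E2f1 followed at -0.95. For each of the 6 subunits every WT adult library was below every WT neonate one, with differences from -0.30 for Mcm5 to -0.68 for Mcm6, and lower still for Mcm2. In all, 9 of 16 S phase members were lower in adults without overlap, near the 50.9% of all genes, and 1, Rrm2, was higher, beside 23.3% of all genes. Their median was -0.33, beside -0.27 for all genes.

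Fewer mitosis members were lower in WT adults when all libraries were used. Of the 18, Kif20a and Foxm1 were lower in adults without overlap, Aurka and Birc5 were higher, and 14 overlapped, with a median of -0.03. That count rests on WT adults 2. Without it 9 of 18 mitosis members and 12 of 16 S phase members were lower in adults, beside 55.2% of all genes, while the ratios of mitosis to S phase in the other WT adult libraries, 1.35 and 1.47, stayed above all WT neonate ones. In KO libraries 10 of 16 S phase and 6 of 18 mitosis members were lower in adults, beside 51% of all genes, and 1 and 4 were higher, beside 24.1%. Birc5 was higher in adults in both genotypes, and so was Rrm2. Mcm2 in KO neonates, at 28.6 to 31.0 CPM, lay between WT neonates and WT adults without overlapping either; both comparisons share the WT neonate libraries.

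**Figure D5:**
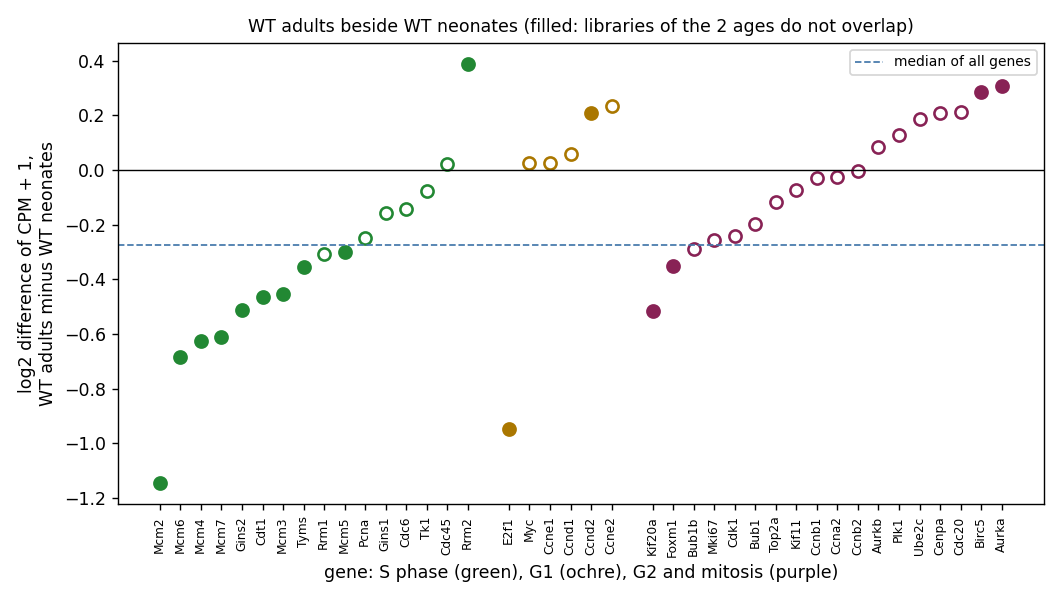
Log2 difference of WT adults minus WT neonates for each member, by role; filled points mark genes whose 3 libraries at one age do not overlap the 3 at the other, and the dashed line the median of all genes, -0.27. All 6 helicase subunits are filled and negative, while most mitosis members are open and lie between -0.52 and 0.31.

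Other genes of the same machinery were counted by the lists they belong to. Of 47 other replication genes, none was called in neonates by limma with library sums or TMM factors, by edgeR or by DESeq2, and 3 had an unadjusted limma p under 0.05. With RPKM scaling, Orc2 (-0.38, limma, adjusted p = 0.0306) and Slbp (-0.26, adjusted p = 0.0493) were called lower in neonates. In adults none of the 47 rose, beside 5.5% of all genes, and 5 fell, beside 13.9%. With TMM the adult count was 2 higher and 1 lower, beside 9.91% and 6.37% of all genes. Orc3, a subunit of the origin recognition complex, fell in adults from 34.4 ± 1.90 to 23.8 ± 0.735 CPM, and its effect differed between ages (-0.44, limma interaction, adjusted p = 0.0282). That difference was not called with RPKM scaling (-0.26, adjusted p = 0.348). Orc2, of the same complex, fell in adults from 13.0 ± 0.696 to 9.53 ± 0.632 CPM (SD, n = 3; limma, adjusted p = 0.0251), and so did Slbp, which binds histone mRNA, from 30.9 ± 2.05 to 24.5 ± 1.52 CPM (adjusted p = 0.0302 by limma). Neither was called in adults with TMM, RPKM scaling, edgeR or DESeq2, and the 1 gene called lower with TMM was Orc3. Of 52 other mitosis genes, Cks1b rose in neonates and none fell, beside 5.21% and 16% of all genes. In adults Pttg1 and Hmgb2 fell and none rose, beside 13.9% and 5.5% of all genes. Hmgb2 was not called with TMM (adjusted p = 0.141), edgeR (0.122), DESeq2 (0.235) or RPKM scaling (0.216). Pttg1 was not called with DESeq2 (adjusted p = 0.0798) or RPKM scaling (0.0883). With TMM 4 of the 52 rose in neonates, beside 8.99% of all genes. In adults 1 rose and 1 fell with TMM, beside 9.91% and 6.37% of all genes. Leaving out WT adults 1, KO adults 2 or KO adults 3 left 1 of the 47 replication genes lower in adults and none higher, and leaving out WT adults 2 left 1 lower and 1 higher. Without KO adults 1 the count was 5 lower, and without WT adults 3 it was 6 lower, with none higher in either fit. In neonates 1 of them, Orc2, was lower without KO neonates 2 (adjusted p = 0.0316). Of the 52 mitosis genes, the adult count of falls was 0 without WT adults 2 or KO adults 3, 1 without KO adults 2, 4 without KO adults 1, and 7 without WT adults 1. Without WT adults 3 it was 3, and 1 gene rose. The call of Cks1b was lost in 5 of the 6 fits that leave out a neonatal library. It was also lost with DESeq2 (adjusted p = 0.089), RPKM scaling (0.0846), the fit of all 4 groups (0.0599) and no filter (0.0651).

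Of 29 other G1 regulators and E2F factors, 10 fell and none rose in neonates, beside 16% and 5.21% of all genes. In adults 6 fell and 3 rose, beside 13.9% and 5.5%. With TMM factors the counts were 5 lower and 1 higher in neonates, beside 7.72% and 8.99% of all genes, and 4 lower and 5 higher in adults, beside 6.37% and 9.91%. DESeq2 called 3 of the 29 lower in neonates, beside 4.07% of all genes. With 1 library left out, 7 to 10 fell in neonates, and 4 to 5 fell and 2 to 4 rose in adults. Ccnd3, the remaining D cyclin, fell in neonates from 46.8 ± 5.31 to 32.5 ± 3.57 CPM (limma, adjusted p = 0.000741), the opposite direction to Ccnd1. E2f8, a repressor E2F, fell from 53.9 ± 4.60 to 38.5 ± 4.77 CPM in neonates (adjusted p = 0.00082). In adults Cdc25a, the phosphatase that activates Cdk2, rose from 66.7 ± 3.85 to 92.5 ± 5.28 CPM (adjusted p = 0.0019). Rb1, the retinoblastoma brake on E2F, fell in adults from 198 ± 6.61 to 143 ± 9.82 CPM (adjusted p = 0.00146) and read 71.6, 67.9 and 65.7 CPM in WT neonates against 74.9, 64.8 and 63.4 CPM in KO neonates. Of 7 CDK inhibitors 5 were tested. Their calls stand beside rises of 5.21% and falls of 16% of all genes in neonates, and 5.5% and 13.9% in adults. Cdkn2b rose in neonates from 51.5 ± 3.19 to 68.7 ± 6.63 CPM, Cdkn1a rose in adults from 256 ± 17.3 to 315 ± 34.7 CPM, and Cdkn1c fell at both ages (limma, adjusted p = 0.000993 in neonates and 0.0249 in adults). The adult calls of Cdkn1a and Cdkn1c were each lost in 4 of the 6 fits that leave out an adult library. That of Cdkn1c was also lost with TMM (adjusted p = 0.0613), edgeR (0.0502) and RPKM scaling (0.119). In the fit of all 4 groups the calls of Cdkn2b in neonates (adjusted p = 0.143) and of Cdkn1a in adults (0.12) were lost, and so was that of Cdkn1a without the filter on low values (0.0593). Cdkn2b was not called in adults by limma with library sums. It was called higher there with DESeq2 (0.63, adjusted p = 0.00228) and with RPKM scaling (0.59, limma, adjusted p = 0.0189). The means in these sentences carry SD over n = 3 libraries.

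Cell type markers moved beside these results. Crypt base stem cell markers, which mark part of the dividing compartment, fell for 3 of 12 genes at each age and rose for none, beside 16% of all genes that fell in neonates and 13.9% in adults. With TMM factors 3 fell in neonates, beside 7.72% of all genes. In adults 2 rose and 1 fell with TMM, beside 9.91% and 6.37% of all genes, with Ephb2 among the 2 (0.29, limma, adjusted p = 0.0414). Their sum was 720 to 749 CPM in WT and 611 to 653 CPM in KO neonates, and 504 to 717 CPM in WT and 434 to 477 CPM in KO adults. Germinal centre B cells also divide, and their 6 markers summed to 47.4 to 54.7 CPM in WT and 82.2 to 86.9 CPM in KO adults. Of the 3 tested genes 1 was called higher, beside 5.5% of all genes. Their neonatal sums were 19.8 to 19.9 CPM in WT and 21.3 to 25.8 CPM in KO, with 1 marker at 0 throughout each group. Sums of B cell and plasma cell markers overlapped in adults, at 580 to 871 CPM in WT and 833 to 1103 CPM in KO. Villus enterocyte markers rose for 9 of 12 genes and fell for 1 in KO neonates, beside 5.21% and 16% of all genes. In KO adults 1 rose and 1 fell, beside 5.5% and 13.9% of all genes. The villus sums nevertheless overlapped in neonates, at 56785 to 60040.3 CPM in WT and 55197 to 58456 CPM in KO.

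Sums of several other marker lists were lower in the KO as well. The calls below stand beside 16% of all genes that fell in neonates and 13.9% in adults. With TMM factors those shares were 7.72% and 6.37%. Paneth cells sit beside the stem cells at the crypt base, and their 8 markers summed to 11270 to 14084 CPM in WT and 7368 to 9694 CPM in KO adults, with 4 of 8 called lower. The 6 goblet cell markers summed to 11724.5 to 12385 CPM in WT and 9528 to 11529 CPM in KO adults, with 3 called lower. With RPKM scaling the adult calls of Agr2, Zg16 and Tff3 were lost (limma, adjusted p = 0.0819, 0.0886 and 0.227). That of Tff3 was also lost with TMM factors (limma, adjusted p = 0.107). Fibroblast markers fell for 3 of 6 genes at each age, and summed to 444 to 590 CPM in WT and 349 to 364 CPM in KO adults; with TMM none of them was called in neonates. Myeloid cell markers summed to 316 to 357 CPM in WT and 217 to 261 CPM in KO neonates, with 4 of 8 called lower, and 1 with TMM. Enteroendocrine markers summed to 342 to 357 CPM in WT and 282 to 335 CPM in KO neonates, and 294 to 300.2 CPM in WT and 228 to 267 CPM in KO adults. Markers of enteric neurons and glia summed to 56.1 to 78.6 CPM in WT and 43.7 to 52.8 CPM in KO neonates, and 11.6 to 13.8 CPM in WT and 8.73 to 10.4 CPM in KO adults. In each of these pairs of sums the genotypes did not overlap. The neonatal sums of Paneth cell markers did overlap, at 376.5 to 583 CPM in WT and 351 to 574 CPM in KO. So did those of fibroblast markers, at 1971 to 2579 CPM in WT and 1777 to 1975 CPM in KO neonates. The part of these markers in the values of the division genes was not tested.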

How the data were processed

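RNA-seq libraries of whole small intestine, 3 per group in 4 groups, were made with a stranded mRNA kit and run for 36 cycles, per the labels' protocols. Bowtie 0.12.2 aligned the reads to mm9, per the submitters' processing notes. Reads were then counted over exons of each gene with HOMER's analyzeRepeats, per the file headers. What the authors deposited as reads is a signal: each library's counts divided by a factor of its own. Whole reads were recovered from it, with 100% of values whole within 0.01 deposited units (largest deviation 0.00535). The deposited RPKM columns were used to compare levels between genes and as an alternative scaling.

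Since these values are normalized, limma 3.58.1 (R 4.3.3) was used rather than a count test. Values were divided by the library sum to give CPM, and a gene was tested where 3 or more libraries reached 1 CPM. The test, on log2(CPM + 1), was limma's moderated one with trend and robust options. It was run for KO against WT at each age and as an interaction in 1 fit of 4 groups over genes in both tables. The pseudocount makes the log2 differences of low genes too small. P-values were adjusted over all genes tested by Benjamini-Hochberg. Alternatives were TMM factors, RPKM scaling, edgeR 4.0.16 and DESeq2 1.42.0 on the recovered reads, a pseudocount of 0.25, no filter, 1 fit of all groups, a replicate block and leaving out each library; for the WT ages, RPKM and leaving out a library were chosen after seeing the data. The procedure was tested on simulated data. Of the other replication genes, 1 is not reported here and was left out of their counts. The members and lists were chosen with earlier results of these data known. Members, and of the other pathway genes up to 3 called per direction, list and comparison with the lowest adjusted p, could be named; of these a selection is printed. P-values measure the spread between these pools of mice, which may be partly technical.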

Additional observations from a re-analysis of the deposited data

Results flagged for a closer look

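The effect of the knockout differed between adults and neonates for 7 genes, each by limma's interaction test with adjusted p over all genes under 0.05. They come from 40 members and from lists of 47, 52, 29 and 7 other pathway genes. Among all 14588 genes tested, the effect in adults was above that in neonates for 3.02% and below it for 2.44%. Among the division genes themselves this was Mcm2, at 0.607 log2 units (adjusted p = 0.0134), lower in 3 of 3 KO neonate libraries and overlapping WT in adults. Of the other replication genes it was Orc3, at -0.442 (adjusted p = 0.0282). Among the other G1 regulators and E2F factors, Mnt, a Myc antagonist, differed by 0.546 (adjusted p = 0.0105). Mnt read 49.5, 51.4 and 44.9 CPM in WT neonates against 42.8, 47.6 and 43.3 CPM in KO neonates, and 25.6, 25.4 and 26.1 CPM in WT adults against 33.9, 38.9 and 32.1 CPM in KO adults. Cdc25a differed by 0.364 (adjusted p = 0.038) and read 63.9, 61.2 and 61.1 CPM in WT neonates against 68.1, 63.7 and 68.1 CPM in KO neonates. Fzr1, an activator of the anaphase-promoting complex in G1, differed by 0.5 (adjusted p = 0.0385). Its mean went from 36.8 ± 2.91 CPM in WT adults to 50.2 ± 6.21 CPM in KO adults (SD, n = 3). E2f8 differed by 0.534 (adjusted p = 0.0486) and read 14.4, 14.6 and 15.9 CPM in WT adults against 13.2, 16.1 and 17.7 CPM in KO adults. Rb1 differed by -0.454 (adjusted p = 0.0139). With each of the 12 libraries left out in turn, Mcm2, Mnt and Rb1 passed in 12 of 12 fits, Orc3 in 4, and Cdc25a, E2f8 and Fzr1 in 3 each. With RPKM scaling the calls of Rb1 (-0.27, adjusted p = 0.205) and Orc3 (-0.26, adjusted p = 0.348) were lost. Those of Cdc25a, E2f8 and Fzr1 were lost with edgeR and with DESeq2, at adjusted p of 0.0556 to 0.0699.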

How the results depend on the processing

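No called value reversed. Differences of members that were not called did change sign with the scaling, in adults for 12 of 40 with TMM or RPKM, in neonates for 7 with TMM, and for 14 of 40 differences between ages with RPKM. Genes called in neonates numbered 3009, and 1574 with DESeq2; in adults 2611, and 1337 with RPKM scaling. Members called higher in neonates numbered 3, but 1 with RPKM scaling and 5 with edgeR, and members called lower 1, but 2 with RPKM scaling and 2 with the replicate block (Mcm6 joining Mcm2, adjusted p 0.0482 with the block, which also called Orc2 lower, at 0.0412). In adults 1 member was called higher, 3 with TMM factors and 2 with edgeR, and none lower, but 2 (Mcm6 and Mki67) in the fit of all 4 groups. The median S phase member in neonates stood 0.183 above all genes, and 0.129 without the filter. With RPKM scaling 5 mitosis members were lower in WT adults, against 2. The cause was not tested. Correlations of same-numbered deviations were 0.16, 0.139 and 0.0286 in neonates and 0.0616, -0.212 and -0.121 in adults. Those of differently numbered libraries ran from -0.183 to 0.0422 in neonates and from -0.129 to 0.229 in adults. These values do not settle whether replicate numbers paired the neonatal samples, so the block was used as a setting only.

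With 1 library left out, genes called ranged from 2020 to 2581 in neonates, from 1281 (without KO adults 3) to 2552 in adults (1605 without KO adults 2 and 1483 without WT adults 2) and from 517 to 1047 for the difference between ages, which called 796. Members called higher ranged from 0 to 2 in neonates and 0 to 3 in adults, and lower from 1 to 1 and 0 to 2; for the difference between ages they stayed at 1 higher and 0 lower. The medians above all genes ranged from 0.140 to 0.204 (neonates) and 0.0756 to 0.199 (adults) for S phase, and from 0.0998 to 0.260 and 0.0388 to 0.207 for mitosis. S phase members lower in WT adults ranged from 9 to 12 and mitosis members from 2 to 9, beside 52.5% to 55.2% of all genes. Low members such as Cdc6, Gins1 and E2f1 have the widest intervals.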

Other observations

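Within the WT neonates the library replicate 2 was the lowest for 14 of 18 mitosis members. Its smooth muscle markers summed to 2256 CPM, beside 1605 and 1478 CPM, and its fibroblast markers to 2579 CPM, beside 2142 and 1971 CPM. Of the 40 members, 5 (Tk1, Cdc6, Top2a, Aurkb and Birc5) lie on chromosome 11, as Ncor1 does, at 6.61 to 55.5 megabases from it, and none of them was called by limma at either age with scaling by library sum.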
